A study of Homo sapiens with 6 samples.

Results

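The genes described here are 10 human genes that encode cytosolic sensors of viral RNA, the adaptor and the kinase that work with them, and the IFIT family of antiviral RNA-binding proteins. They were taken by name from the deposited table of 41768 genes: DDX58, IFIH1, DHX58, DDX60, MAVS, EIF2AK2, IFIT1, IFIT2, IFIT3 and IFIT5. All 10 are in the table and all 10 passed the filter of a mean of at least 1 FPKM (fragments per kilobase of gene length, scaled to M sequenced fragments, where M stands for mega) over the libraries, as did 12592 genes in all. DDX60 passed it only through its levels in the 90 line. The genes were selected on their measured FPKM changes in these libraries, with the changes of interferon-induced genes after siALDOA, their difference between the lines and the GC trend of the libraries already known, so the tests below describe these libraries and are not independent support.

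The libraries are poly(A)-selected RNA of cultured cells from 2 lines of pancreatic ductal adenocarcinoma (PDAC). PANC-1, a widely used human line, has 2 siALDOA libraries, numbered as in the labels, and 1 NC library, and so has the line named 90. The prefix si is taken here as small interfering RNA against ALDOA, the gene of the glycolytic enzyme aldolase A; the labels do not spell out NC or 90, and give neither dose nor time. Nor do they say if the numbers 1 and 2 stand for distinct siRNA sequences, for repeats with the same one or for separate cultures. The fits treat them as repeats, so that a p-value here reflects the spread among libraries, which may be technical. With 1 NC library a line, changes within a line share that single baseline.

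As background, RIG-I (encoded by DDX58) and MDA5 (IFIH1) are helicases that bind viral RNA in the cytosol, RIG-I preferring short RNA with a triphosphate end and MDA5 long duplexes. Both pass the signal to MAVS, a protein of the mitochondrial outer membrane, which leads to the production of interferon. LGP2 (DHX58) belongs to the same receptor family but lacks the signalling domains. PKR (EIF2AK2) is a kinase that, once bound to duplex RNA, phosphorylates the translation factor eIF2 alpha and so slows protein synthesis. IFIT proteins bind foreign RNA or the translation machinery and are among the transcripts most strongly induced by interferon. Apart from MAVS, all the genes named here are themselves known to be induced by interferon.

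The stretches of DNA just before the starts of 4 of these genes are shown because 3 of them (IFIT1, IFIT3 and IFIT5) hold matches to a short motif known from interferon-induced genes, and the window of MAVS, whose transcript had the narrowest range over the libraries, does not. Each is the 250 bases before a RefSeq transcript start (GRCh38.p14), read in the direction of the gene, with the motif in capitals. The motif is GAAA, any 2 bases and GAAA again, the core of the interferon-stimulated response element. Both strands were searched, so a match on the other strand reads TTTC, any 2 bases and TTTC, and matches may overlap.
IFIT1 (chr10:89392373-89392622, plus strand): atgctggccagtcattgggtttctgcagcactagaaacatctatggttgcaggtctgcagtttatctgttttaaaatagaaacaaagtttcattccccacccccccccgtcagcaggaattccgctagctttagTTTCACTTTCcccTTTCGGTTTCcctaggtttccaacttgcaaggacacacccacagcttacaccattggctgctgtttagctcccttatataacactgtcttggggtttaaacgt
IFIT3 (chr10:89327747-89327996, plus strand): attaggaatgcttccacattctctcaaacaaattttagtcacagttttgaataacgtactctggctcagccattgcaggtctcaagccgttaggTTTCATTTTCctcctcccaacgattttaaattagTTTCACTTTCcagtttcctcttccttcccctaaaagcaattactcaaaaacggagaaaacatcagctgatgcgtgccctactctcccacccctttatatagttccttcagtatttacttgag
IFIT5 (chr10:89414318-89414567, plus strand): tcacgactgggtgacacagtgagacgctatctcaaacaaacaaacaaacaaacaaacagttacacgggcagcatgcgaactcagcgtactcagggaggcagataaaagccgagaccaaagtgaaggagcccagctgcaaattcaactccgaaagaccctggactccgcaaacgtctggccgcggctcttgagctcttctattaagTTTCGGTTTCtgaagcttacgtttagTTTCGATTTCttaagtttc
MAVS (chr20:3846584-3846833, plus strand): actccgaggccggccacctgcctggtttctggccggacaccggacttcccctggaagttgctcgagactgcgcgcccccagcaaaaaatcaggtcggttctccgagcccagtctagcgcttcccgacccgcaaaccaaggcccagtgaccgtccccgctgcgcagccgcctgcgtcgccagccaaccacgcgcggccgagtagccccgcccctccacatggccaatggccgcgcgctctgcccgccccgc
Windows were matched for 8 of the 10 genes, all but DHX58 and IFIT2, with DDX58 found under its newer symbol RIGI. A match stood in the windows of 5 of these 8 genes, namely IFIH1, DDX60, IFIT1, IFIT3 and IFIT5, and in 3.02% of the 35116 promoter windows of the reference. IFIT3 has 2 listed starts, and both windows held matches; the one shown is the start farther upstream. In IFIT1 the matches began 116 and 103 bases before the start, in IFIT5 45 and 19 bases before it, and in DDX60 88 and 53 bases before it. The windows of DDX58, MAVS and EIF2AK2 held no match, which says only that these letters are not in these windows. Unlike MAVS, DDX58 (0.558 to 29.9 FPKM) and EIF2AK2 (2.78 to 27.8 FPKM) ranged widely over the libraries. A missing match thus did not go with a narrow range in all 3 genes.

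The IFIT genes lie next to each other on chromosome 10, all on the plus strand (GRCh38, GENCODE v29): IFIT2 from 89283694 to 89309276, IFIT3 from 89327894 to 89340971, IFIT1 from 89392546 to 89406486 and IFIT5 from 89414586 to 89421001. IFIT1B, the relative that lies between IFIT3 and IFIT1, was listed at 0 in all 6 libraries. DDX58 is on chromosome 9 (32455705 to 32526324), IFIH1 and EIF2AK2 on chromosome 2 (162267079 to 162318703 and 37099210 to 37157065), DDX60 on chromosome 4 (168216293 to 168318807) and DHX58 on chromosome 17 (42101404 to 42112733), all on the minus strand. MAVS is on the plus strand of chromosome 20 (3846799 to 3876123). Exons of LIPA, on the other strand, share 65 bases with those of IFIT2 (1.58% of its exonic bases), and exons of GPATCH11 share 35 bases with those of EIF2AK2 (0.325%). GENCODE v29 has further transcripts over 8.68% of the exonic bases of IFIT2 and 3.73% of those of EIF2AK2 as well, which are not genes of the table. Whether counting used strand is not stated, so reads of these stretches are uncertain. The IFIT genes resemble each other in sequence, as do DDX60 and its neighbour DDX60L, so reads that match more than 1 of them could have been split or dropped.

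Depth recovered from the values ran from 17.7 to 21.8 M fragments per library. With the longest GENCODE transcript as length, the 60 member values rest on an estimated 9 to 6631 fragments (median 389.5), the lowest being DDX60 in siALDOA 1 of PANC-1. A value of 3 fragments would correspond to 0.0117 to 0.0678 FPKM, depending on the gene and library, and covers counting error only. ALDOA itself stood at 501 and 462 FPKM in the siALDOA libraries of PANC-1, against 906 in NC, and at 262 and 318 in those of 90, against 726 in NC. Of 8 genes listed to describe PDAC lines, the keratins KRT8, KRT18 and KRT19 were at 652 to 2427 FPKM in every library. KRT7 ranged over 6.24 to 11.5 FPKM in PANC-1 and 905 to 1350 in 90. CDH1 was at 1.18 to 2.05 in PANC-1 and 38.0 to 44.5 in 90, and EPCAM at 7.51 to 17.5 and 88.6 to 154. The remaining genes of that list, VIM and CDH2, were higher in PANC-1. VIM was at 1976 to 2322 FPKM in PANC-1 and 593 to 802 in 90, and CDH2 at 5.29 to 7.82 and 0.866 to 1.39. Of 6 leukocyte markers, the defining marker PTPRC was at 0 to 0.0169 FPKM and CD14 at 0.0623 to 0.722, but CD68, a lysosomal gene, was at 124 to 162 FPKM in PANC-1 and 31.3 to 51.2 in 90 and made up nearly all of the list's summed 31.4 to 162.6 FPKM. Their part in the results was not tested. The summed level of 3 markers of plasmacytoid dendritic cells, which make interferon, was 0 to 0.0449 FPKM.

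The receptors DDX58 and IFIH1 had nearly the same levels in the NC libraries of both lines and moved widely between the siALDOA libraries. DDX58 was at 0.558 and 7.93 FPKM in siALDOA 1 and 2 of PANC-1, against 2.84 in NC, and at 29.9 and 5.67 FPKM in siALDOA 1 and 2 of 90, against 2.46 in NC. IFIH1 was at 0.305 and 2.51 FPKM in siALDOA 1 and 2 of PANC-1, against 1.51 in NC, and at 15.4 and 3.08 FPKM in those of 90, against 1.45 in NC. For both genes siALDOA 1 of 90 was the highest library and siALDOA 1 of PANC-1 the lowest, and the siALDOA libraries of PANC-1 lay on either side of NC.

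DHX58, the regulator of this family, had another pattern. It was at 1.73 and 1.41 FPKM in siALDOA 1 and 2 of PANC-1, against 0.889 in NC, and at 12.98 and 19.1 FPKM in siALDOA 1 and 2 of 90, against 8.81 in NC. It was the only member above the NC library of its line in all 4 siALDOA libraries, a pattern met by 3.39% of the tested genes, and its highest library was siALDOA 2 of 90. DDX60, a helicase described as a cofactor of RIG-I, was the member with the widest range. It was at 0.0678 and 0.51 FPKM in siALDOA 1 and 2 of PANC-1, against 0.168 in NC, and at 22.1 and 3.14 FPKM in siALDOA 1 and 2 of 90, against 0.491 in NC. Its neighbour DDX60L stood at 0.132 and 0.548 FPKM in the siALDOA libraries of PANC-1, against 0.224 in NC, and at 25.1 and 3.88 FPKM in those of 90, against 1.58 in NC, in the same order of libraries within each line as DDX60.

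The adaptor MAVS had the narrowest range of the members. It was at 10.2 and 8.92 FPKM in siALDOA 1 and 2 of PANC-1, against 8.16 in NC, and at 7.30 and 7.84 FPKM in siALDOA 1 and 2 of 90, against 8.52 in NC. The siALDOA libraries of PANC-1 lay above NC and those of 90 below it, a spread from 7.30 to 10.2 FPKM in all. EIF2AK2, the gene of PKR, was at 2.78 and 7.81 FPKM in siALDOA 1 and 2 of PANC-1, against 3.39 in NC, and at 27.8 and 7.01 FPKM in siALDOA 1 and 2 of 90, against 8.90 in NC. In each line 1 siALDOA library of EIF2AK2 was above NC and the other below it.

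The IFIT genes, the effectors of the group, included the most abundant members in 90. IFIT1, whose protein binds RNA that lacks the methylated cap of cellular mRNA, was at 1.89 and 5.53 FPKM in siALDOA 1 and 2 of PANC-1, against 3.87 in NC, and at 74.0 and 29.2 FPKM in siALDOA 1 and 2 of 90, against 14.4 in NC. IFIT3, which binds and stabilises IFIT1, was at 1.04 and 3.13 FPKM in siALDOA 1 and 2 of PANC-1, against 1.11 in NC, and at 110.1 and 25.9 FPKM in siALDOA 1 and 2 of 90, against 19.1 in NC. For both genes every library of PANC-1 lay below every library of 90. IFIT2, which forms complexes with the other IFIT proteins, was at 0.576 and 4.25 FPKM in siALDOA 1 and 2 of PANC-1, against 2.37 in NC, and at 22.4 and 5.26 FPKM in siALDOA 1 and 2 of 90, against 2.46 in NC. IFIT5, which binds RNA with a triphosphate end, was at 0.862 and 4.31 FPKM in siALDOA 1 and 2 of PANC-1, against 3.39 in NC, and at 14.2 and 5.70 FPKM in siALDOA 1 and 2 of 90, against 2.55 in NC. The NC libraries of the lines were close for IFIT2 and IFIT5 and far apart for IFIT3 and IFIT1.

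**Figure D1:**
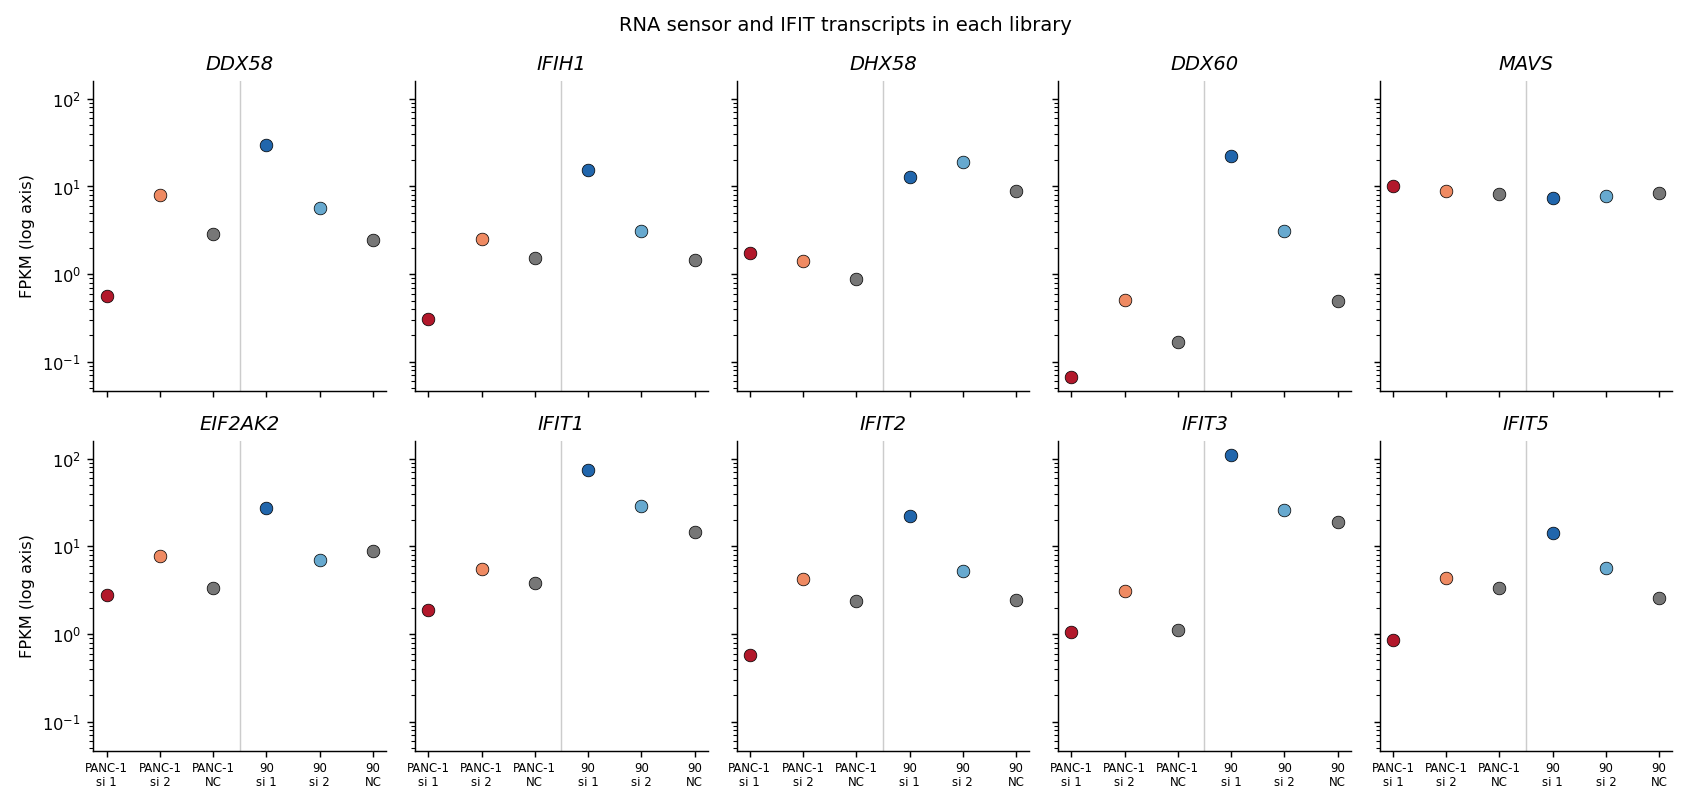
FPKM of each gene (log axis) in the 6 libraries, 1 point a library, with the siALDOA libraries (si 1 and si 2) left of NC and PANC-1 left of 90. MAVS stays between 7.30 and 10.2 FPKM, while DDX60 spans 0.0678 to 22.1 FPKM and siALDOA 1 of PANC-1 is the lowest library for 8 of the 10 genes plotted.

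Ranked by FPKM, which is a level per length, the members stood in a different order in each line. In 90 IFIT3 and IFIT1 held the first ranks in all 3 libraries, and in PANC-1 MAVS did so in all 3. DDX60 ranked last in all 3 libraries of PANC-1 and in NC of 90. IFIT3 stood above IFIT1 in siALDOA 1 and NC of 90 and below it in siALDOA 2, so their order there is within the spread of the libraries. The 4 IFIT genes summed to 4.37 and 17.2 FPKM in siALDOA 1 and 2 of PANC-1, against 10.7 in NC, and to 221 and 66.0 FPKM in siALDOA 1 and 2 of 90, against 38.5 in NC. IFIT3 made up 23.9% and 18.2% of that sum in the siALDOA libraries of PANC-1 and 10.3% in NC, and 49.9% and 39.2% in the siALDOA libraries of 90 and 49.5% in NC. IFIT5 made up 19.7% to 31.6% of it in PANC-1 and 6.42% to 8.64% in 90. IFIT2 made up 13.2% to 24.7% in PANC-1 and 6.39% to 10.2% in 90. The shares of IFIT2, IFIT3 and IFIT5 did not overlap between the lines. As parts of the same sum, they depend on each other. The share of IFIT1 overlapped, at 32.1% to 43.2% in PANC-1 and 33.5% to 44.2% in 90.

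Ratios between the receptors separated DHX58 from the other receptors. DDX58 was 1.83 and 3.17 times IFIH1 in FPKM in siALDOA 1 and 2 of PANC-1 and 1.89 times in NC, and 1.94 and 1.84 times in siALDOA 1 and 2 of 90 and 1.69 times in NC, so this ratio stayed near the same value in 5 of 6 libraries. DHX58 was 3.10 and 0.177 times DDX58 in siALDOA 1 and 2 of PANC-1 and 0.313 times in NC, and 0.434 and 3.37 times in siALDOA 1 and 2 of 90 and 3.58 times in NC. The libraries with DHX58 above DDX58 were thus siALDOA 1 of PANC-1 and siALDOA 2 and NC of 90. Transcript GC content is 58.2% for DHX58, 40.5% for DDX58 and 43.3% for IFIH1, and its part in these ratios was not tested.

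**Figure D2:**
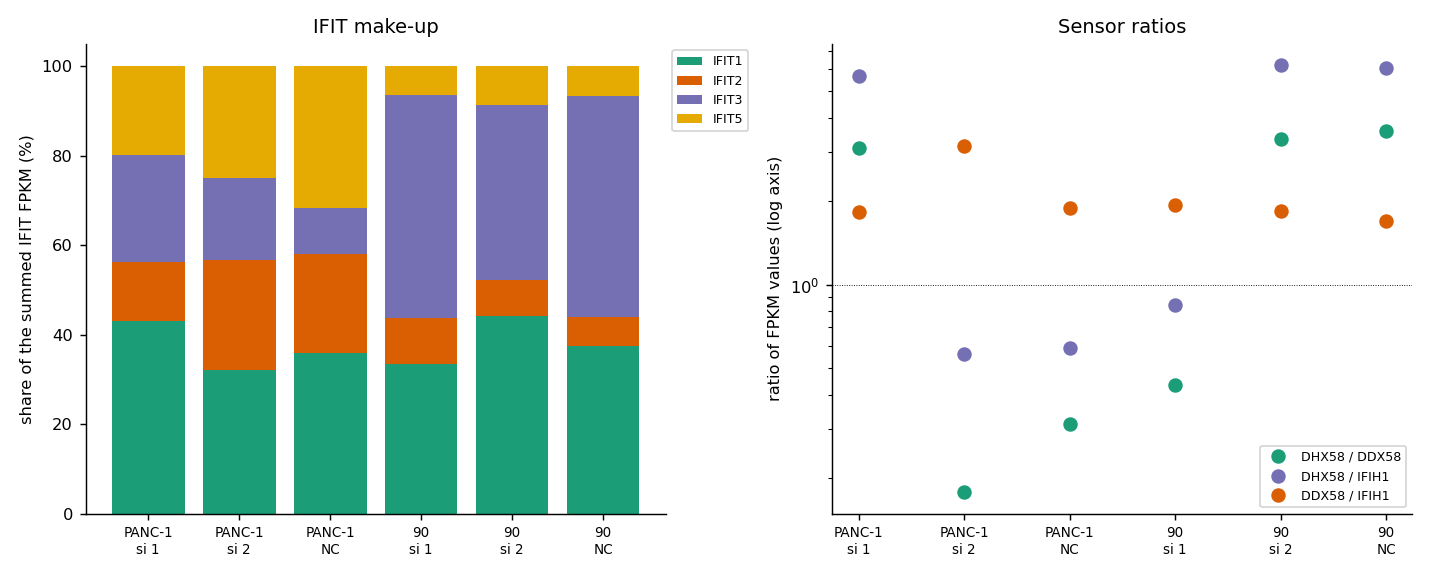
Left, share of each IFIT gene in the summed IFIT FPKM of a library (%). Right, ratios of FPKM values between receptor genes (log axis, dotted line at 1), with siALDOA left of NC and PANC-1 left of 90. IFIT3 takes 39.2% to 49.9% of the sum in 90 and 10.3% to 23.9% in PANC-1, and DDX58 over IFIH1 lies between 1.69 and 3.17 while DHX58 over DDX58 runs between 0.177 and 3.58 and DHX58 over IFIH1 between 0.562 and 6.19.

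Over both lines, all 10 members had a fitted log2 change above 0 for siALDOA against NC, but none passed the test. Changes were fitted on log2(FPKM + 1), a scale that understates the change of low genes, with limma and a term for the line, and adjusted over all 12592 genes. Of these, 0% were called at an adjusted p under 0.05, and 43 genes had an unadjusted p under 0.05. ALDOA, the gene targeted, was not called either, here or in the fits within a line. Its log2 changes were -1.47 and -1.19 in siALDOA 1 and 2 of 90, and -0.85 and -0.97 in those of PANC-1. A gene not called in these tests is thus not shown to be unchanged. Among the members 1 had an unadjusted p under 0.05, DHX58, with a log2 change of 0.61 (SE 0.234, unadjusted p = 0.0484, limma adjusted p = 1), higher in 4 of 4 siALDOA libraries. The changes of DDX60 (1.42, SE 0.916) and IFIT3 (0.95, SE 0.677) exceeded their errors, and that of DDX58 (1.0, SE 1.04) did not. That of IFIT1 (0.73, SE 0.641) exceeded its error. Like DDX58, IFIT2 (0.79, SE 0.853), IFIH1 (0.75, SE 0.820), IFIT5 (0.51, SE 0.706), EIF2AK2 (0.51, SE 0.625) and MAVS (0.02, SE 0.176) had errors larger than their changes. The median over the members was 0.74, beside 0.01 over all tested genes, but it was 0.039 without the NC library of 90, 1.56 without that of PANC-1, 0.28 without siALDOA 1 of 90 and 1.15 without siALDOA 1 of PANC-1. Without the NC library of 90, which leaves the change to PANC-1, the values of DDX58, IFIH1, IFIT1, IFIT2 and IFIT5 were between -0.48 and -0.04, and DDX60, at 0.12, was below IFIT3 (0.46), DHX58 (0.44) and EIF2AK2 (0.39).

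In the 90 line most members stood above NC in both siALDOA libraries. Except for MAVS and EIF2AK2, all members were above NC in both, 8 of 10 genes, beside 20.6% of all tested genes. MAVS was below NC in both, as were 22.5% of all genes. In siALDOA 1 DDX60 was at 45.1 times its FPKM in NC, DDX58 at 12.1 times, IFIH1 at 10.6 times and IFIT2 at 9.09 times. IFIT3 at 5.77 times, IFIT5 at 5.55 times, IFIT1 at 5.12 times and EIF2AK2 at 3.12 times followed, with DHX58 at 1.47 times and MAVS at 0.856 times. In siALDOA 2 the ratios were smaller and more alike. DDX60 was at 6.40 times NC there, DDX58, IFIT5, DHX58, IFIT2, IFIH1 and IFIT1 between 2.02 and 2.30 times, IFIT3 at 1.36 times, MAVS at 0.920 times and EIF2AK2 at 0.787 times. The fitted median change in 90 was 1.56 on the log2 scale, beside -0.03 over all genes, with 0 of 10 members called by limma, 0% of all genes called, and 0 members and 33 genes at an unadjusted p under 0.05. With the GC trend of each library corrected, 0 members were called and 4 members and 161 genes had an unadjusted p under 0.05.

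In PANC-1 the siALDOA libraries disagreed. Of the 10 members, 8 were below NC in siALDOA 1 and above it in siALDOA 2, a pattern met by 30% of all tested genes, and DHX58 and MAVS were above NC in both, as were 22.9% of all genes. In siALDOA 1 DDX58 was at 0.196 times NC, IFIH1 at 0.202, IFIT2 at 0.243, IFIT5 at 0.255, DDX60 at 0.405 and IFIT1 at 0.488 times. IFIT3 at 0.945 times and EIF2AK2 at 0.820 times were nearer to NC. IFIT3 rests on an estimated 57 fragments in both siALDOA 1 and NC, so its direction there is not resolved. DDX60 rests on an estimated 9 fragments in siALDOA 1 and 21 in NC. In siALDOA 2 DDX60 was at 3.04 times NC, IFIT3 at 2.83, DDX58 at 2.79 and EIF2AK2 at 2.30 times, and the others were between 1.09 and 1.79 times. The median fitted change was 0.04, beside -0.01 over all genes, and it was -0.48 in siALDOA 1 and 0.45 in siALDOA 2. By limma 0 of 10 members and 0% of all genes were called, with 0 members and 21 genes at an unadjusted p under 0.05. The difference between the siALDOA changes of PANC-1 and 90, tested as an interaction, had a member median of -1.88, beside 0.01 over all genes, with 0 of 10 members called (0% of all genes), and 0 members and 24 genes at an unadjusted p under 0.05 (after the GC correction 0 called, and 2 members and 168 genes). Its lowest unadjusted p among members was 0.177 for DDX60, at -2.59 (SE 1.59).

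The siALDOA libraries also differed in how genes of low GC content stood against NC, and most members are such genes. Transcript GC content, from the longest GENCODE v29 transcript, was 37.4% for IFIT5, 38.7% for EIF2AK2, 39.1% for DDX60, 40.5% for DDX58, 42.2% for IFIT1, 42.8% for IFIT2, 43.3% for IFIH1 and 44.3% for IFIT3, under the median of 49.6% over 11943 tested genes, and 52.1% for MAVS and 58.2% for DHX58. Over the 1493 genes of the lowest eighth in GC content, the median log2 change against NC stood at 1.40 in siALDOA 1 and 0.12 in siALDOA 2 of 90, and at -1.02 in siALDOA 1 and 0.55 in siALDOA 2 of PANC-1. For the 8 low-GC members the median was 2.60 in siALDOA 1 and 0.89 in siALDOA 2 of 90, and -0.85 in siALDOA 1 and 0.56 in siALDOA 2 of PANC-1. The medians of both sets thus had the same sign in each library.

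Members were next set beside the genes whose GC content lies within 1 percentage point of theirs, 611 to 985 genes per member. In siALDOA 1 of 90 the change of DDX60 was 3.95, beside a median of 1.25 (middle 50% of genes 0.65 to 1.95), and that of DDX58 was 3.16, beside 0.95 (0.42 to 1.67). EIF2AK2 lay within such a range, at 1.54 beside 1.31 (0.69 to 1.96), and so did MAVS, at -0.20 beside -0.15. The other 8 members were above the middle 50% of genes of like GC content in siALDOA 1 of 90, and the same 8 were above it in siALDOA 2. There IFIT1 was at 0.97 beside -0.22, IFIH1 at 0.73 beside -0.25, IFIT2 at 0.85 beside -0.24 and IFIT5 at 0.92 beside 0.15, while EIF2AK2, at -0.31 beside 0.03, was below the middle 50%. In siALDOA 1 of PANC-1 DDX58, IFIH1 and IFIT2 were below the middle 50% and DHX58, DDX60, MAVS and EIF2AK2 above it. For DDX60 this place was fixed by the scale. At a log2(FPKM + 1) of 0.224 in NC it could not fall as far as its range of -1.41 to -0.40. Its FPKM there was 0.405 times that of NC, on an estimated 9 fragments. In siALDOA 2 of PANC-1 5 members were above the middle 50% and 0 below.

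**Figure D3:**
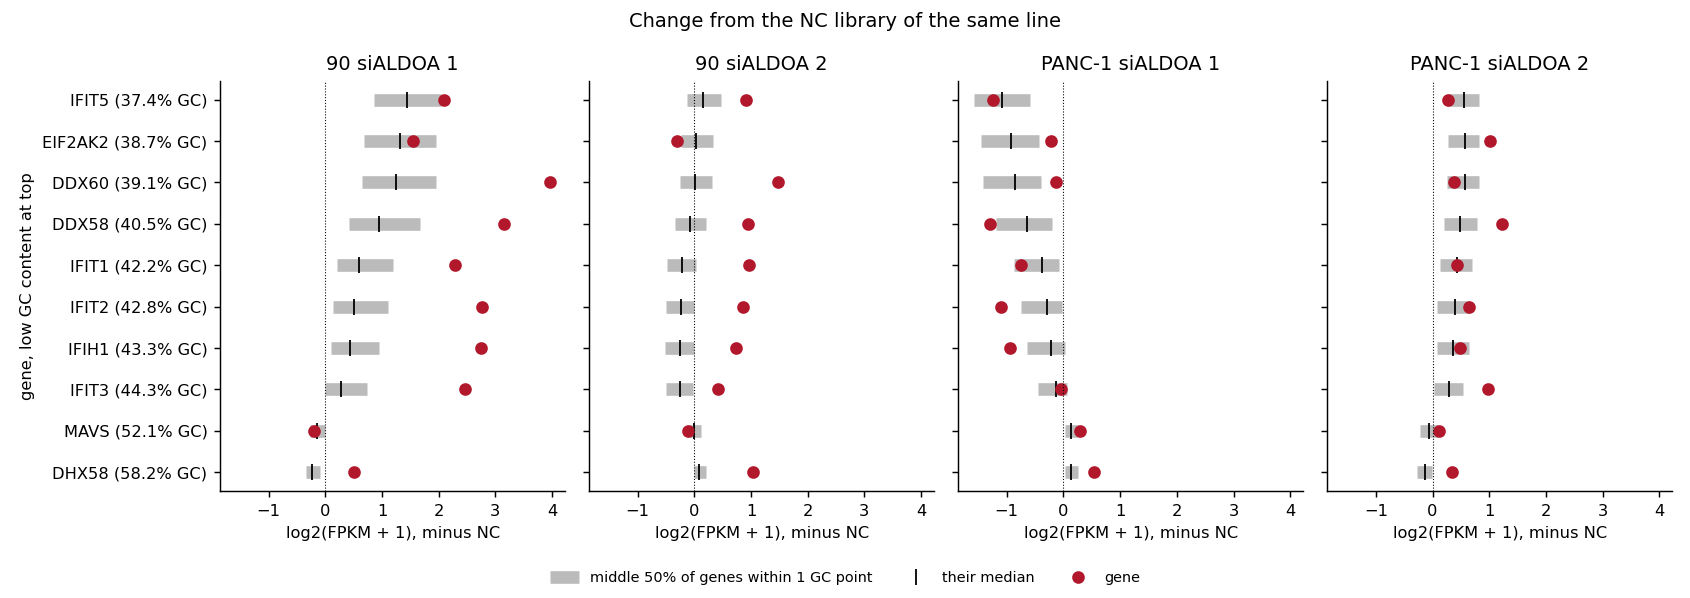
Change of each gene from the NC library of its line on the log2(FPKM + 1) scale (red points), beside the median (black tick) and middle 50% (grey bar) of genes within 1 percentage point of its GC content, with genes ordered by GC content. In both 90 libraries 8 points lie to the right of their bars, and in PANC-1 points lie on either side.

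DHX58 and MAVS are the members with the highest GC content. Genes with a GC content like that of DHX58 had a median change of -0.23 in siALDOA 1 and 0.09 in siALDOA 2 of 90, and of 0.13 in siALDOA 1 and -0.14 in siALDOA 2 of PANC-1. DHX58 was at 0.51 and 1.03 in those of 90 and at 0.53 and 0.35 in those of PANC-1, above the middle 50% of such genes in all 4. After a correction of the GC trend in each library, the member medians were 1.74 and 0.95 in siALDOA 1 and 2 of 90, and 0.01 and 0.20 in siALDOA 1 and 2 of PANC-1. In that correction DDX60 (2.75 and 1.46), DDX58 (2.13 and 1.01), IFIH1 (2.11 and 0.93) and IFIT2 (2.06 and 1.04) had the largest changes in siALDOA 1 of 90 (the second value is siALDOA 2), while EIF2AK2 was at 0.29 and -0.33, and IFIT5 was at 0.68 and 0.82. The change over both lines was not called for any member after the correction (0 of 10 by limma, 1 at an unadjusted p under 0.05, beside 170 genes).

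**Figure D4:**
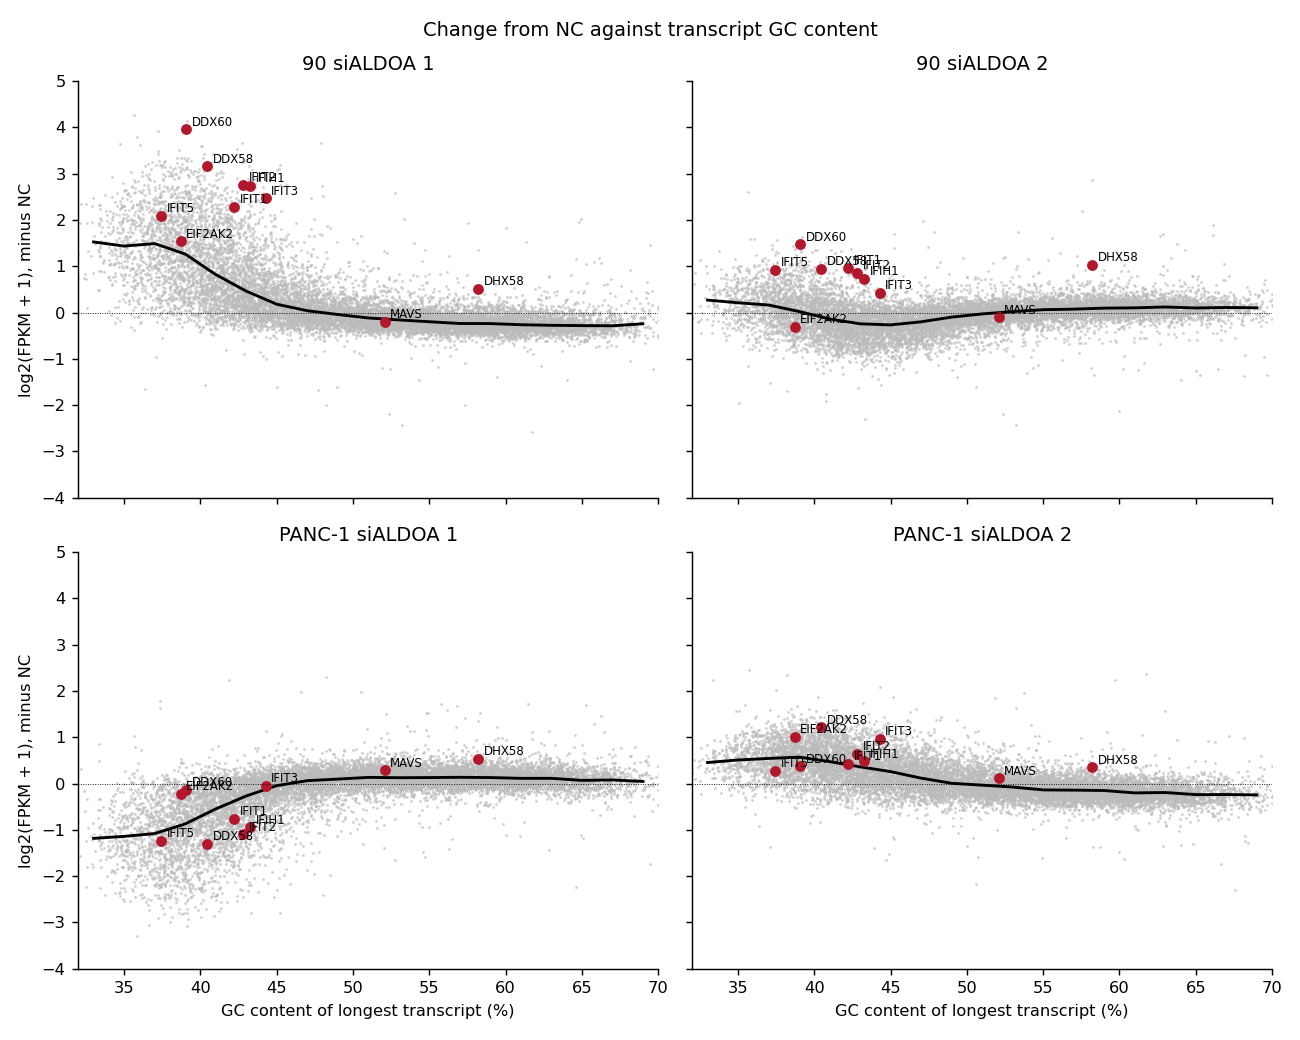
Change from NC on the log2(FPKM + 1) scale against transcript GC content (%), for all tested genes in the plotted range (grey), their median in steps of GC content (black line) and the members (red, named), in each siALDOA library. The black line bends up at low GC content in siALDOA 1 of 90, where the lowest eighth has a median of 1.40, and down in siALDOA 1 of PANC-1, where it has -1.02.

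Between the lines, DHX58, IFIT1 and IFIT3 were lower in PANC-1 than in 90 and passed the test. All 3 libraries of each line enter this comparison, whose fit has a term for siALDOA. IFIT3 averaged 1.76 ± 1.19 FPKM in PANC-1 and 51.7 ± 50.7 in 90 (SD, n = 3 each), with a log2 difference of -3.91 (SE 0.639, limma adjusted p = 0.00782). IFIT1 averaged 3.76 ± 1.82 FPKM in PANC-1 and 39.2 ± 31.0 in 90 (SD, n = 3 each), with a log2 difference of -2.86 (SE 0.604, limma adjusted p = 0.0181). DHX58 averaged 1.34 ± 0.425 FPKM in PANC-1 and 13.6 ± 5.16 in 90 (SD, n = 3 each), with a log2 difference of -2.60 (SE 0.220, limma adjusted p = 0.00102). These 3 were also the members whose libraries did not overlap between the lines, 3 of 10 beside 25.1% of all tested genes lower in PANC-1 without overlap, with 0 members higher without overlap beside 29% of all genes. The 3 members called, all lower, stand beside 18.4% of all genes called lower and 38.8% called in either direction, and nothing is read from this, since the line difference was known when the genes were chosen. Whether fewer cells held these transcripts or each cell held less of them cannot be told apart in bulk RNA.

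The other members did not pass. DDX60 had a log2 difference of -2.08 (SE 0.864, limma adjusted p = 0.124), IFIT2 of -1.40 (SE 0.805), EIF2AK2 of -1.32 (SE 0.589, limma adjusted p = 0.146), IFIH1 of -1.28 (SE 0.773), DDX58 of -1.24 (SE 0.982) and IFIT5 of -1.02 (SE 0.665). MAVS was the only member above 0, at 0.18 (SE 0.166), and its libraries overlapped, at 9.09 ± 1.02 FPKM in PANC-1 and 7.89 ± 0.615 in 90 (SD, n = 3 each). The median over the members was -1.36, beside 0.13 over all tested genes, and ran from -2.01 to -0.72 when 1 library was left out. After the GC correction, DDX60 (-2.33, limma adjusted p = 0.0222), EIF2AK2 (-1.58, limma adjusted p = 0.0042) and IFIT5 (-1.29, limma adjusted p = 0.00831) passed as well, 6 members in all. Calls over all genes rose too. They were 6105 of 11943 genes, 3156 of them lower in PANC-1, beside 4882 of 12592 as deposited, 2315 of them lower. DDX60 passed the filter only through 90, which favours a lower value in PANC-1 in each of its calls between the lines. Its PANC-1 values rest on an estimated 9 to 58 fragments. Its corrected log2 levels were 0.745 in siALDOA 1, -0.179 in siALDOA 2 and -0.028 in NC of PANC-1. As deposited, siALDOA 1 was the lowest of these libraries.

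**Figure D5:**
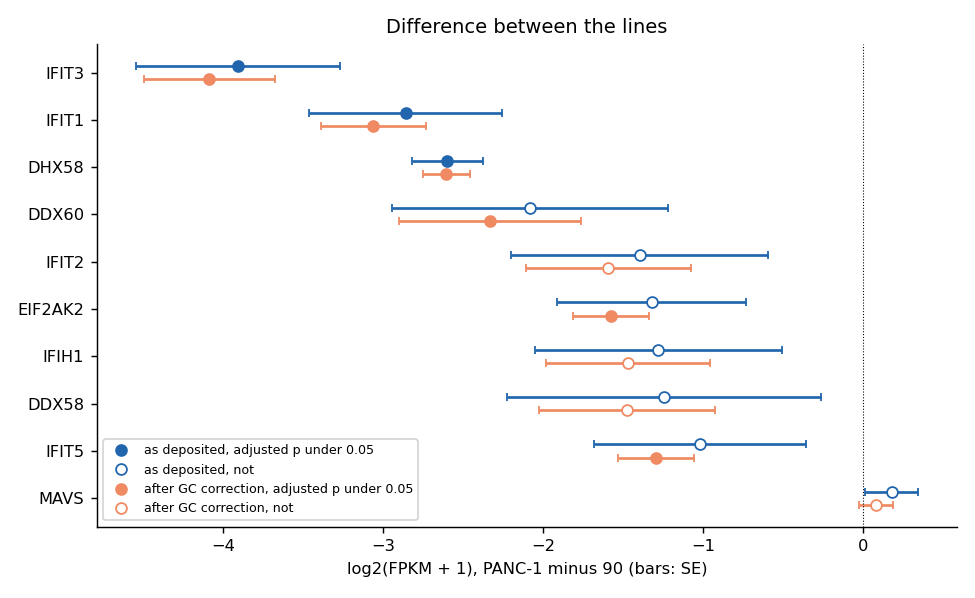
Difference between the lines, PANC-1 minus 90, on the log2(FPKM + 1) scale with its SE, as deposited (blue) and after the GC correction (orange), with filled points for a limma adjusted p under 0.05. IFIT3, IFIT1 and DHX58 are filled in both, DDX60, EIF2AK2 and IFIT5 after the correction alone, and MAVS lies near 0.

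In the NC libraries by themselves, which allow values but no test, the members fell into sets. PANC-1 NC had 0.058 times the FPKM of 90 NC for IFIT3, 0.101 times for DHX58, 0.268 times for IFIT1, 0.341 times for DDX60 and 0.381 times for EIF2AK2. For MAVS, IFIT2, IFIH1, DDX58 and IFIT5 the ratio was between 0.958 and 1.33. With siALDOA 1 of both lines left out, a setting chosen with the data in view, the difference of DDX58 was 0.29, on the other side of 0, those of IFIH1, IFIT2 and IFIT5 were -0.09, -0.15 and -0.015, the member median was -0.33, and DDX60 was called as the fourth member (-0.90, limma adjusted p = 0.0095). That setting called 7201 of all 12592 tested genes between the lines, beside 4882 with all libraries. DHX58, IFIT1 and IFIT3 were called when any single library was left out, and also with siALDOA 1 of both left out. IFIT1 was at the edge of the threshold without siALDOA 2 of 90 (limma adjusted p = 0.049996).

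The rest of the RNA sensing pathway was read from 7 lists of 111 genes, chosen with earlier results of these data known but not by how the genes moved. Of their 87 tested genes, 0 were called for siALDOA against NC, and 0 had an unadjusted p under 0.05. For PANC-1 against 90, 12 were higher and 13 lower, beside 20.4% and 18.4% of all tested genes. Among ligases and cofactors of the receptors, 4 of 15 were higher in PANC-1 and 1 lower. The lower one was TRIM25, a ubiquitin ligase known to activate RIG-I (-1.14, SE 0.142, limma adjusted p = 0.00325), at 30.6 and 25.3 FPKM in siALDOA 1 and 2 of PANC-1 and 23.1 in NC, and at 56.5 and 60.0 FPKM in those of 90 and 60.1 in NC. ZCCHC3, a cofactor of both receptors, was higher (1.56, SE 0.186), as were HDAC6, a deacetylase of RIG-I (1.08, SE 0.181), and PRKRA, an activator of PKR (0.81, SE 0.226). For siALDOA against NC the smallest p of the list belonged to the phosphatase gene PPP1CA, at -0.17 (SE 0.185), and to YWHAE, at -0.09 (SE 0.108), whose product carries RIG-I to membranes.

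Of the relay from MAVS to the interferon genes, 3 of 20 genes were higher in PANC-1 and 4 lower. IKBKE, a kinase that phosphorylates IRF3 and is itself inducible, had the largest difference, at 2.24 and 1.38 FPKM in siALDOA 1 and 2 of PANC-1 and 1.94 in NC, and at 19.3 and 25.5 FPKM in those of 90 and 23.5 in NC (-3.06, SE 0.208, limma adjusted p = 5.28e-04). IRF7, a transcription factor that amplifies interferon production (-2.13, SE 0.267), and IKBKB, a kinase of the NF-kB pathway (-1.21, SE 0.156), were lower too, and RIPK1 (0.96, SE 0.246), TRAF2 (0.74, SE 0.189) and RELA (0.63, SE 0.171), which act in NF-kB signalling, were higher. For siALDOA against NC, IRF7 had a log2 change of 0.35 (SE 0.283), at 24.5 and 38.0 FPKM in siALDOA 1 and 2 of 90, against 18.0 in NC, and at 5.54 and 4.55 FPKM in those of PANC-1, against 5.15 in NC. TRAF3, an adaptor downstream of MAVS, had a change of 0.18 (SE 0.171).

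Negative regulators had 1 of 18 tested genes higher in PANC-1, the phosphatase gene DUSP1 (2.07, SE 0.240), and 3 lower, NLRC5 (-2.33, SE 0.228), TNFAIP3, which encodes the ubiquitin-editing enzyme A20 (-1.88, SE 0.229), and RNF5 (-0.76, SE 0.174). NLRC5, best known as an activator of MHC class I genes, passed the filter only through 90, being at 0.467 to 0.591 FPKM in PANC-1 and at 5.31 to 9.14 FPKM in 90. For siALDOA against NC, NLRC5 (0.22, SE 0.242) and RNF5 (-0.17, SE 0.185) had the smallest p of the list.

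Among other sensors, 1 of 11 tested genes was higher in PANC-1 and 2 were lower. MB21D1, the gene of the DNA sensor cGAS, was higher (1.02, SE 0.166), and its partner TMEM173, the gene of STING, was lower (-2.28, SE 0.221), as was IFI16 (-4.10, SE 0.735), a DNA-binding interferon-induced protein that passed the filter only through 90. IFI16 was at 0.299 and 0.083 FPKM in siALDOA 1 and 2 of PANC-1, against 0.0151 in NC, and at 69.5 and 15.7 FPKM in those of 90, against 5.15 in NC. Its siALDOA change over both lines was 1.35 (SE 0.780), and that of DDX60L was 1.12 (SE 0.825). Toll-like receptors of RNA were in that list as well, and 6 of its 17 genes in the table were not tested for their low level.

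In the arm of PKR and the stress response it shares with other kinases, 3 of 17 genes were higher in PANC-1 and 3 lower. ADAR, whose product edits duplex RNA and so keeps it from the sensors, was lower (-1.46, SE 0.117, limma adjusted p = 8.60e-04), as were ATF4 (-1.25, SE 0.133), the transcription factor of this response, and PPP1R15A (-0.85, SE 0.171), which directs the dephosphorylation of eIF2 alpha. DDIT3 (1.13, SE 0.140) and ATF3 (0.77, SE 0.199), transcription factors downstream of ATF4, and EIF2AK1 (0.77, SE 0.114), the kinase that answers heme shortage, were higher. For siALDOA against NC, ADAR had a change of 0.26 (SE 0.124), at 40.5 and 39.6 FPKM in siALDOA 1 and 2 of PANC-1, against 31.5 in NC, and at 116 and 101 FPKM in those of 90, against 95 in NC, above NC in 4 of 4 libraries. ATF3 had a change of 0.27 (SE 0.212).

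Enzymes that build or degrade the mRNA cap that IFIT1 reads, with other IFIT relatives, had 0 of 6 tested genes called in either comparison by limma, and 0 at an unadjusted p under 0.05. The cap methyltransferase CMTR1 had a siALDOA change of 0.17 (SE 0.178), at 17.1 to 20.8 FPKM in PANC-1 and 17.3 to 23.1 in 90. CMTR2, a low-GC gene (37.9%), was at 0.150 and 3.83 FPKM in siALDOA 1 and 2 of PANC-1, against 1.81 in NC, and at 3.98 and 0.966 FPKM in those of 90, against 0.379 in NC, the same order of libraries within each line as IFIT2. Between the lines the smallest p of the list were those of the decapping gene DXO (-0.31, SE 0.183) and the capping enzyme gene RNGTT (0.68, SE 0.663). Transcripts of the interferons themselves were scarce. Of 10 ligand genes 4 were listed at 0 in all libraries, 6 (these included) were under 1 FPKM in all, and none passed the filter. Their summed level was 0.483 to 5.11 FPKM, and only IFNB1 and IFNL1 are given here by name. The gene of interferon beta, IFNB1, was at 0 to 0.0577 FPKM in PANC-1 and 0.134 to 0.244 in 90. That of interferon lambda 1, IFNL1, was at 1.39 and 0.561 FPKM in siALDOA 1 and 2 of PANC-1, against 0.849 in NC. In siALDOA 1 and 2 of 90 it was at 0.599 and 1.29 FPKM, against 0.131 in NC. Both genes were singled out for their role downstream of MAVS after their values were seen.

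Likeness to the members was measured as Pearson's r, over the 6 libraries, with the mean of the members' standardised log2(FPKM + 1). The 5 genes with the highest r were FAM3C2, DAAM1, MDFIC, IL8 and ZEB1-AS1 (r from 0.994 to 0.998), with GC contents of 33.4% to 43.6%. IL8, which encodes a chemokine for neutrophils, was at 0.161 and 0.970 FPKM in siALDOA 1 and 2 of PANC-1, against 0.455 in NC, and at 5.99 and 2.47 FPKM in those of 90, against 1.42 in NC. After the mean of each line was subtracted, the 5 highest were LOC100129272, PLA2G12A, IL8, RANBP6 and MIR3916 (r from 0.991 to 0.997). The points of these correlations share their libraries and the GC trend, and with 6 libraries many genes can reach such values. Among the members themselves, each set against the mean of the other 9, r after subtracting the line means was 0.852 to 0.971 for the 8 low-GC genes, 0.154 for DHX58 and -0.682 for MAVS.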

How the data were processed

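The authors deposited 1 table of FPKM values, made from poly(A)-selected RNA-seq of 6 libraries. HISAT2, featureCounts and the build hg38 are named per the submitters' processing notes; versions, the use of strand and the lengths that FPKM was divided by are not stated. The table has 41769 lines, 1 of them with no gene name, which was dropped. Depth came from short RNA genes of known RefSeq length: their FPKM times length is a whole number of steps for 96.1% to 97.1% of the values (up to 8 steps, within 0.03 of a step). Other genes have no length in the table, and count models were not used.

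The analysis used log2(FPKM + 1) of the 12592 genes averaging 1 FPKM or more, with limma 3.58.1 (R 4.3.3), an intensity trend and Benjamini-Hochberg adjustment over all genes, two-sided. Changes over both lines and between lines came from an additive fit (3 residual degrees of freedom), changes within a line and the interaction from the 4 group means (2 residual degrees of freedom), in which the single NC library is taken to spread as the siALDOA libraries do. The additive fits were tested on simulated data with known changes and noise drawn separately for each gene. These data held no GC trend shared by the genes of a library, so that trend was not covered. GC content was matched for 94.8% of tested genes, and the correction subtracts a loess curve (span 0.5) per library. The members and lists were chosen with earlier results of these data known. All members are named; of each list, up to 3 called genes per direction, or the 2 with the smallest p. Alternatives were other pseudocounts, filters, scalings, a replicate block and left-out libraries.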

Additional observations from a re-analysis of the deposited data

Results flagged for a closer look

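MAVS was at 10.2 and 8.92 FPKM in the siALDOA libraries of PANC-1, against 8.16 in NC, and at 7.30 and 7.84 FPKM in those of 90, against 8.52 in NC. It is listed because both siALDOA libraries of PANC-1 lay above NC and both of 90 below it. Of all tested genes, 22.9% were above NC in both siALDOA libraries of PANC-1 and 22.5% below it in both of 90. The share with both patterns at once was not counted. The difference of the changes, PANC-1 minus 90, was 0.35 on the log2 scale (SE 0.414, limma adjusted p = 1, unadjusted p = 0.439) and did not pass the interaction test. Genes with a GC content like that of MAVS had median changes of 0.13 and -0.05 in siALDOA 1 and 2 of PANC-1, and -0.15 and -0.001 in those of 90. Their part in the pattern was not tested.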

How the results depend on the processing

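The count of 3 members called lower in PANC-1 was 5 after quantile normalization (DDX60 and EIF2AK2 added) and 6 after the GC correction (IFIT5 added too), also 6 with the replicate block and GC correction together; with the replicate block alone it was 3, the same genes, and without siALDOA 1 of both lines 4 (DDX60 added). Over all 12592 genes the calls were 4882 as deposited, 4286 after quantile normalization and 3258 with the replicate block. They were 7201 without siALDOA 1 of both lines. After the GC correction 6105 of 11943 genes were called, and 4931 with the replicate block and GC correction together. DHX58, IFIT1 and IFIT3 were called under all alternatives run, IFIT1 at the edge of the threshold in some. Its limma adjusted p was 0.049996 without siALDOA 2 of 90, 0.0486 with the replicate block and 0.0480 without siALDOA 2 of PANC-1. Over genes, siALDOA 1 minus siALDOA 2 correlated at -0.86 between the lines, so libraries of the same number did not move alike. With 2 pairs this cannot show what the numbers 1 and 2 stand for. A crossed block, added after seeing the data, called 4 members (EIF2AK2 added) and 7594 of all genes. No paired analysis was possible for siALDOA against NC because NC libraries carry no number.

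For siALDOA over both lines no alternative called a member. Without siALDOA 1 of both lines, a setting chosen with the data in view, 17 genes but no member were called. By limma 7 members and 652 of all genes then had an unadjusted p under 0.05, beside 1 member and 43 genes with all libraries. The line difference of DDX58 was 0.29 in that setting. Leaving out 1 library at a time gave ranges over both lines of -0.043 to 2.05 for DDX58, -0.23 to 1.74 for IFIH1, -0.16 to 1.62 for IFIT1, -0.23 to 1.81 for IFIT2, -0.48 to 1.51 for IFIT5 and -0.15 to 0.20 for MAVS, which was at -0.062 after quantile normalization; the lowest values but that of MAVS came without 90 NC, the lowest of MAVS without PANC-1 NC. The member median in PANC-1 ran from -0.48 to 0.45 and was -0.012 at a pseudocount of 0.1. The median difference of the changes between the lines ran from -2.53 to -0.98. For PANC-1 minus 90 the member median ran from -2.01 to -0.72, DDX58 from -1.94 to -0.33, IFIH1 from -1.93 to -0.52, IFIT2 from -2.07 to -0.66, IFIT5 from -1.68 to -0.40, EIF2AK2 from -1.83 to -0.77 and DDX60 from -2.95 to -1.13. Over both lines the member median ran from 0.039 to 1.56, DDX60 from 0.12 to 2.71, IFIT3 from 0.45 to 1.44 and EIF2AK2 from 0.094 to 0.88. The causes were not tested.

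Of all genes, 4882 were called between the lines, 3258 with the replicate block, 2424 without 90 NC, 2422 without PANC-1 NC, 2423 in the siALDOA libraries alone and 7201 without siALDOA 1 of both lines, where 63.7% of calls were higher in PANC-1, beside 52.6% as deposited, 43.4% of 3700 calls after median-ratio scaling and 48.3% of 6105 after the GC correction. Without a filter 38 genes were called in 90 and 49 in PANC-1, beside 0 in each. Median-ratio scaling moved the median of all genes between the lines from 0.13 to 0.02, and the GC correction to 0.001. Depth limits DDX60 in PANC-1, at an estimated 9 to 58 fragments.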
